A study of Mus musculus with 42 samples.

Results

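Rhbdl3 encodes a rhomboid, a membrane-embedded protein of a family that includes proteases. Rhomboids of the fruit fly cut and release ligands of the EGF receptor. At birth the mouse retina holds late progenitor cells, which can still divide or can leave the cycle as rods, bipolar cells, amacrine cells or Müller glia. The Notch pathway is central to that choice. A cell that starts to become a neuron displays Delta or Jagged ligands, Notch receptors on its neighbours are cut, and their Hes and Hey targets hold the neighbours in the progenitor state.

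Single retinal cells of CD-1 mice had each been profiled on 1 Affymetrix array, and 13 of the 42 cells in the series came from postnatal day 0 (P0). The other 29 came from embryonic day (E) 12.5 (11 cells), E13.5 (4), E14.5 (2), E15.5 (1) and E16.5 (11). These earlier cells are used below in the plot of Dll1 against Rhbdl3 signal. They also serve to compare cells with and without Rhbdl3 before birth. All 13 P0 cells are labelled as retinal progenitor cells and were untreated. The cells were drawn from dissociated retinas by capillary, and no animal is named for any of them. P0 cell C5 is shown by the study as a cell in transition between progenitor and neuron. The P0 cells were selected on their Rhbdl3 signal, the higher value of 2 probe sets that carry this symbol alone. A signal of 1000 or more was called present, the limit that the study also set. On this rule 6 P0 cells had Rhbdl3 and 7 did not. Since each side is a set of single cells with no animal named, and since the sides were chosen from a measured value, each side counts as 1 sample and no difference below carries a p-value. Intervals cover the counting of cells only. For genes named for a large difference they do not allow for that choice.

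The 6 cells with Rhbdl3 were A8 with a signal of 19782, C8 with 19580, H3 with 10501, F3 with 7431, H2 with 3008 and G2 with 1294. The 7 cells without it were C5 with 111, E6 with 96.7, B6 with 69.8, E5 with 53.7, C1 with 49.3, B5 with 27.0 and E2 with 4.95. The lowest cell inside the limit, G2, thus stood at 1294 and the highest cell outside it, C5, at 111. These values chose the cells and are given as a description. In each of the 6 positive cells the value came from the same probe set. The other one reached 1000 in C8 with 8133, H3 with 4163 and F3 with 1273, and stood at 8.61 in A8, the cell with the highest Rhbdl3 value.

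**Figure D1:**
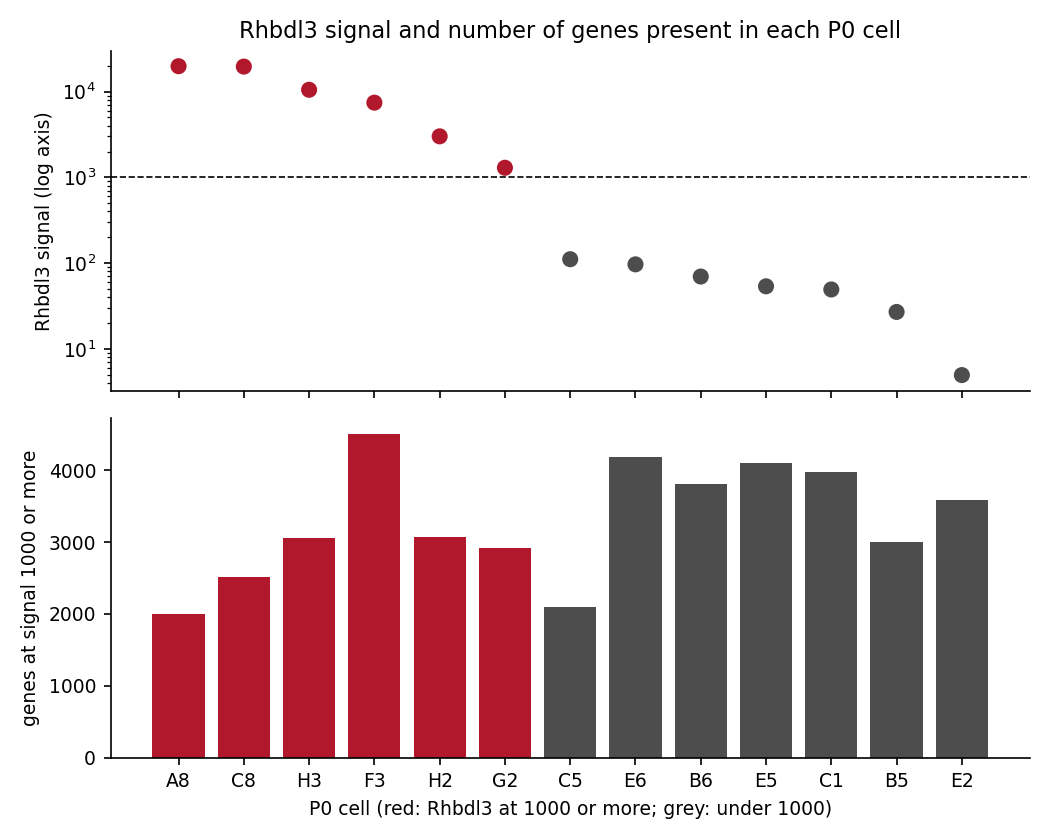
Upper panel, Rhbdl3 signal (log axis) of the 13 P0 cells, with a dashed line at 1000. Lower panel, how many genes reached 1000 in the same cells. Red marks the 6 cells with Rhbdl3 and grey the 7 without, and cell A8, with the highest Rhbdl3 signal of 19782, has the fewest genes, 2001.

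The sides differed in how many genes were present at all. The cells with Rhbdl3 had 2001 to 4498 genes (median 2989) and those without had 2103 to 4182 (median 3808). The ranges overlapped almost entirely, but 5 of the 6 cells with Rhbdl3 lay below the median of the other side. The level of the hybridization control probe sets moved the other way. It ran from 33165 to 92144 (median 46299) in cells with Rhbdl3 and from 12177 to 79103 (median 22878) in cells without. Results with signals scaled to equal controls are given below. Beyond that, the part of this level in the differences between sides was not tested. Of 18194 genes measured, 5914 were present in at least 3 P0 cells and were compared. Over these genes the median difference in the share of cells, with Rhbdl3 minus without, was -7.14 percentage points. When only the 2001 genes of highest signal were called present in every cell, this median was 0 and the mean moved from -6.58 to 0.21 points. The main differences are therefore given as measured and also at this equal gene number. As measured, 58.8% of the genes compared were in a smaller share of cells with Rhbdl3. Progenitor genes were present on both sides. Of 14 late progenitor genes, the cells with Rhbdl3 had a mean of 71.4% ± 16.3 (SD over cells) and the cells without had 71.4% ± 12.4, with a difference of 4.59 points at equal gene number. The lowest counts were 6 in A8 and 7 in C5. Of 17 broad progenitor genes C8 had 5 and C5 6, and the other cells had 8 to 13. Markers of blood and microglia were at 0 of 12 in every P0 cell.

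Among the Notch ligands, Dll1 was the one present in more than 1 cell with Rhbdl3. Dll1 encodes Delta-like 1, a ligand found on cells that are about to become neurons, and it was present in 3 of 6 cells with Rhbdl3 and in 1 of 7 without. Its signal was 18722 in A8, 9927 in C8 and 12564 in H3, and 61.7 in F3, 21.0 in H2 and 3.50 in G2. On the other side it was 2093 in B5 and at most 377 in the remaining 6 cells. The 3 cells with Dll1 were thus the 3 cells with the highest Rhbdl3, and their Dll1 signals stood above that of every cell without Rhbdl3. The difference in the share of cells was 35.7 points, with a Newcombe 95% interval from -12.7 to 69.1, which includes 0, and it was 50.0 points at equal gene number. Dll1 is one of the genes that the study itself shows beside Rhbdl3, so it was picked on these cells and its direction is no independent evidence.

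**Figure D2:**
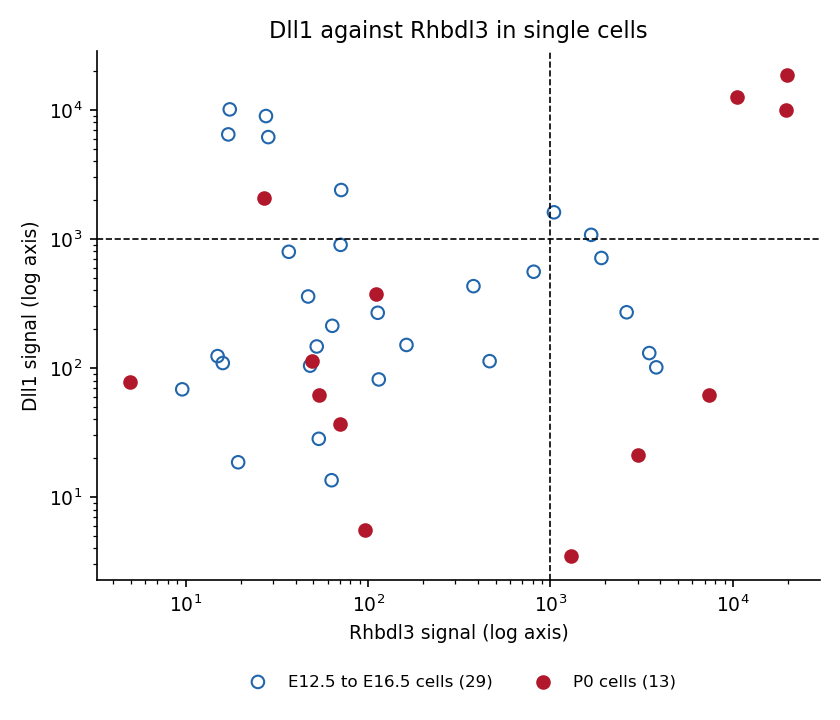
Dll1 signal against Rhbdl3 signal, both on log axes, in 13 P0 cells (filled) and 29 cells from E12.5 to E16.5 (open), with dashed lines at 1000. The 3 P0 cells at the upper right (A8, C8 and H3) are high for both genes, whereas 5 of the earlier cells have Dll1 without Rhbdl3.

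The other ligands were rare. Dll4, a ligand of newly committed retinal cells, had a signal of 9225 in C8 and at most 197 in every other P0 cell. Jag1 was present in F3 alone, at 1541, and Jag2 in E6 alone, at 1904. Dll3, a Delta homologue that acts inside the cell, stayed under 1000 in all 13 cells, with its highest signal, 977, in A8. A ligand was therefore present in 4 of 6 cells with Rhbdl3 and in 2 of 7 without. Of the 5 ligands only Dll1 was present in enough cells to be compared. As measured it fell short of the limit of 50 points used for single genes, and at equal gene number it stood at that limit. The other ligands, each present in at most 1 P0 cell, could not reach it. The 2 cells of lowest Rhbdl3 among the positive ones, H2 and G2, had no ligand.

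To show where Dll1 transcription starts, its 2 RefSeq promoter windows (GRCm38.p6, minus strand, 250 bases before to 50 after the start) are given, with matches in capitals. The motifs searched on both strands were the E-boxes CAGCTG and CAGATG, which proneural factors bind, TGGGAA, the core that Rbpj binds, and TTTGAA, the CHR element of G2/M genes.
Dll1, chr17:15376883-15377182: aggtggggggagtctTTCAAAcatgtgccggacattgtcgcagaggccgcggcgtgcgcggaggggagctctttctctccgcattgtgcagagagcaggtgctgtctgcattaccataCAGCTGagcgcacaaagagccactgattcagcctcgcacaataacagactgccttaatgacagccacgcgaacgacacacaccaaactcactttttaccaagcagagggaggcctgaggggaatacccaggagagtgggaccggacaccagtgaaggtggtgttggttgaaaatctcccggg
Dll1, chr17:15375774-15376073: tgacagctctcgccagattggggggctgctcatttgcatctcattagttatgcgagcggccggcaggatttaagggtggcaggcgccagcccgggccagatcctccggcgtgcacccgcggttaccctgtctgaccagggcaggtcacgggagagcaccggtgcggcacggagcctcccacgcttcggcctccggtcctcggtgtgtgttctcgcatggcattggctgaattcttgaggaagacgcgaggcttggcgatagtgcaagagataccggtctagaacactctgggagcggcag
The first window held 1 CAGCTG and 1 CHR match and the second held none of the 4 motifs. Such matches are common, since CAGCTG occurred in 16.3% of 32851 promoters of the same length, CAGATG in 17.2%, TGGGAA in 25.6% and TTTGAA in 17.9%.

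Receptors and targets of the pathway showed no such direction. Notch1, the main receptor of retinal progenitors, was present in 6 of 6 cells with Rhbdl3 and 6 of 7 without. Its 3 highest signals were nonetheless in A8 (36361), H3 (22495) and C8 (14299), the cells with Dll1, followed by E2 (13557) without Rhbdl3. These signals are not adjusted for gene number. A8, the cell with the fewest genes (2001), was also highest for Sdha (25135) and Fos (74389), outside the pathway. It was lowest for Vim (803). Rbpj, the DNA-binding partner of cut Notch, was present in 1 of 6 and 5 of 7 cells, a difference of -54.8 points that was -26.2 at equal gene number. Of 26 receptors and processing factors, 14 were compared, 0 were called higher and 1, Rbpj, was called lower (7.14%, beside 4.5% of all genes), and 0 by both rules. Of 11 effectors, 8 were compared and 0 were called in either direction. Hey2, a target of the pathway, was present in H2 (4288) of the cells with Rhbdl3 and in E6, B6, E5 and B5 (3758 to 11327) of the cells without.

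Several genes of neurogenic commitment were found in cells without Rhbdl3, but the differences of the lists that hold them shrank at equal gene number. Of 26 neurogenic progenitor genes, the cells with Rhbdl3 had a mean of 29.5% ± 9.9 and those without 39.0% ± 8.1, and the difference of -9.52 points was -0.64 at equal gene number, with 0 genes called by both rules. Neurog2, a bHLH factor that starts neuronal differentiation, was present in 0 of 6 cells with Rhbdl3 and in 4 of 7 without. Its signal was 3952 in C5, 5802 in B6, 1448 in C1 and 6940 in B5, and at most 70.9 in every other P0 cell. The share of cells differed by -57.1 points (Newcombe 95% interval -84.2 to -6.61), and by -42.9 at equal gene number. Neurog2 was named for the largest difference in its list, which the interval does not allow for. Neurod4 was present in 0 and 3 cells (-42.9 points, and -14.3 at equal gene number), with signals of 3172 in E6, 1751 in B6 and 10933 in B5. Neurod1 was present in A8 (4703) on one side and in C1 (10532) and B5 (3928) on the other. In all, the 15 proneural bHLH genes had 0 or 1 member in each cell with Rhbdl3 and 0 to 4 in each cell without, with B6 and C1 at 4 and B5 at 3. Of these genes 8 were present in no P0 cell and 3 were compared. Neurog2 alone was called lower, beside 4.5% of all genes, and 0 were called by both rules. The list differed by -10.2 points as measured and by -4.6 at equal gene number.

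Foxn4, a forkhead factor of amacrine and horizontal precursors, was present in 0 of 6 and 4 of 7 cells, in E5, B6, B5 and E2 at 1040 to 3982. Its highest signal with Rhbdl3 was 729 in F3, close to the limit, and at equal gene number its difference shrank from -57.1 to -14.3 points. Otx2, which photoreceptor precursors need, was present in B6 (8750) and C1 (4765) only, with 984 in C8 just under the limit. Btg2, an antiproliferative gene, was present in 0 of 6 and 3 of 7 cells, at 18200 in C5, 8831 in B6 and 2608 in C1. No cell with Rhbdl3 exceeded 268 for Btg2, and its difference of -42.9 points was -28.6 at equal gene number. Hes6, Cdkn1b, Spred1, Cdc20 and Ube2c, the ones not yet described, were present at shares that differed little, with the largest difference, -21.4 points, for Cdc20 (3 of 6 and 5 of 7 cells).

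**Figure D3:**
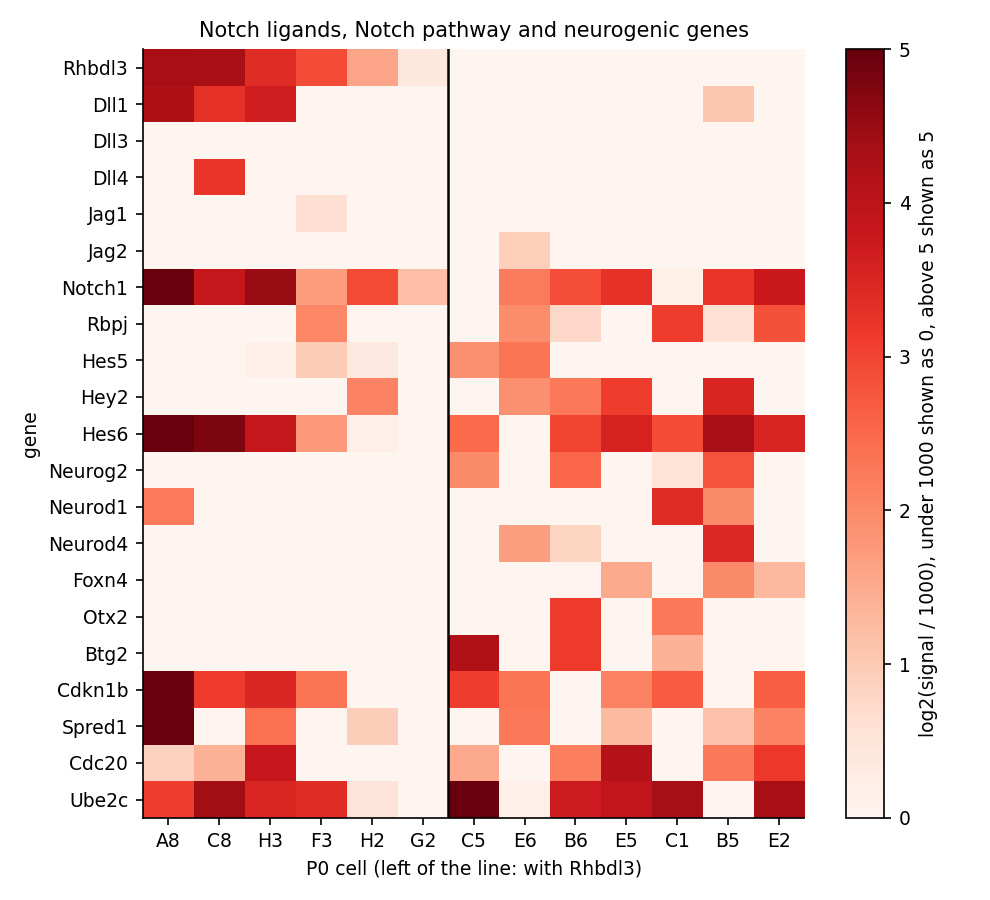
Signals of Notch ligands, Notch pathway genes, neurogenic genes and genes shown by the study beside Rhbdl3 (rows) in the 13 P0 cells (columns, by falling Rhbdl3), as log2 of the signal over 1000 with lower signals set to 0 and values above 5 drawn as 5. Dll1 fills the 3 columns of highest Rhbdl3, and Neurog2, Neurod4, Foxn4, Otx2 and Btg2 are empty left of the line.

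Hes6, a Hes relative that promotes differentiation, and Cdkn1b, the p27 inhibitor of cyclin-dependent kinases, varied strongly within the positive side. Hes6 was 42930 in A8, 27490 in C8 and 14319 in H3, against 3399 in F3, 1108 in H2 and 16.5 in G2. Cdkn1b was 35320 in A8, 8722 in C8, 11108 in H3 and 4948 in F3, and under 1000 in H2 and G2. Within this side both genes were thus highest in the cells with Dll1, though these signals are not adjusted for gene number. On the side without Rhbdl3, Hes6 reached 19612 in B5 and Cdkn1b 8579 in C5.

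Neuronal genes followed the same side as Neurog2, but in few cells. Of 43 general neuronal genes, C1 had 29, B6 28 and B5 17, and the other 4 cells without Rhbdl3 had 7 to 11. Of the cells with Rhbdl3, C8 had 23 and the other 5 had 3 to 7. The mean share was 18.6% ± 17.4 with Rhbdl3 and 37.5% ± 20.8 without, a difference of -18.9 points that was -10.1 at equal gene number and kept its sign when signals were scaled to equal hybridization controls. Among the 25 neuronal genes compared, 23 were present in a smaller share of cells with Rhbdl3, beside 58.8% of all genes. Of these, 3 were called lower, 12% against 4.5% over all genes compared, and 1 by both rules (beside 0.778% of all genes). The median difference of the 25 genes was -26.2 points, beside -7.14 over all genes, and -16.7 beside 0 at equal gene number. Kif5c, a motor of neuronal transport, was present in 1 of 6 and 5 of 7 cells (-54.8 points, and -57.1 at equal gene number). Its one positive cell with Rhbdl3 was C8, at 2577. Scg3, a secretory granule protein, and Mllt11 were present in 1 and 2 of 6 cells and in 5 and 6 of 7, and fell short of the limit at equal gene number (-28.6 and -23.8 points). Ank3, which anchors channels at the axon's initial segment, and Dpysl3 were the exceptions, at 5 and 3 of 6 cells and 4 and 2 of 7.

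Markers of ganglion cells and photoreceptors were carried mostly by the same few cells. Of 14 ganglion cell markers, C1 had 6, B6 5 and B5 4, C8 had 2, and no other cell with Rhbdl3 had any. Pou4f1, a ganglion cell factor, was present in C1 (19848), B6 (4104) and B5 (2498) alone. Of 23 photoreceptor markers, B5 had 7 and B6 and C1 5 each, against 0 to 2 in each cell with Rhbdl3. Crx, the photoreceptor homeobox factor, was present in B6 (6799), C1 (4151) and B5 (2061), and Nrl, which directs rods, in C5 (5464), C1 (3303) and B5 (2948). Both were under 1000 in all 6 cells with Rhbdl3. Of 18 amacrine and horizontal cell markers, C1 had 6, B6 and C5 4 each and B5 3, and every other cell had 0 to 2. Bipolar cell markers were rare, with 2 of 11 in C8 and F3 and 0 or 1 in every other cell. Of the 11, 7 were present in no P0 cell and 1 was compared, so no direction is read from them. None of these marker genes reached the limit of 50 points. The shares of Müller glia markers were close, 46.3% ± 10.3 with Rhbdl3 and 43.7% ± 5.0 without, a difference of 2.65 points that was 7.67 at equal gene number. Sox8, a glial factor, was present in 5 of 6 and 5 of 7 cells, but at equal gene number in 4 of 6 and 0 of 7. Its signal ran up to 24853 in A8 with Rhbdl3 and was at most 1786 in B6 without. Its 4 highest signals were in A8, H3, C8 and F3, the 4 cells of highest Rhbdl3.

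Genes of G2 and mitosis separated the cells with Rhbdl3 from one another more than from the cells without. Of 77 G2/M genes, F3 had 65, H3 61, A8 49 and C8 42, while H2 had 11 and G2 had 4. The cells without Rhbdl3 had 32 (B5) to 69 (E2). H2 and G2, the positive cells of lowest Rhbdl3, were therefore the only P0 cells with under 30 of these genes. The mean share was 50.2% ± 33.2 with Rhbdl3 and 68.5% ± 15.9 without, a difference of -18.2 points that lay within the spread over cells. It was -9.6 points at equal gene number, and it became 15.0 points when the limit on Rhbdl3 was set at 5000, which moved H2 and G2 to the other side. Of the 72 G2/M genes compared, 60 were in a smaller share of cells with Rhbdl3, where 58.8% of all genes were. Of the 72 genes, 7 were called lower (9.72%, beside 4.5% of all genes) and 3 by both rules (beside 0.778%). Kif2c, a kinesin that shortens microtubules at the spindle, was present in H3 alone with Rhbdl3 and in 5 of 7 cells without (-71.4 points at equal gene number). Sgo1, which protects centromeric cohesion, and Ube2s, which extends ubiquitin chains for the anaphase-promoting complex, were each present in 2 of 6 and 6 of 7 cells, but differed by -23.8 and -38.1 points at equal gene number. In the opposite direction, Kif11, the motor that separates spindle poles, was present in 3 of 6 and 1 of 7 cells.

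**Figure D4:**
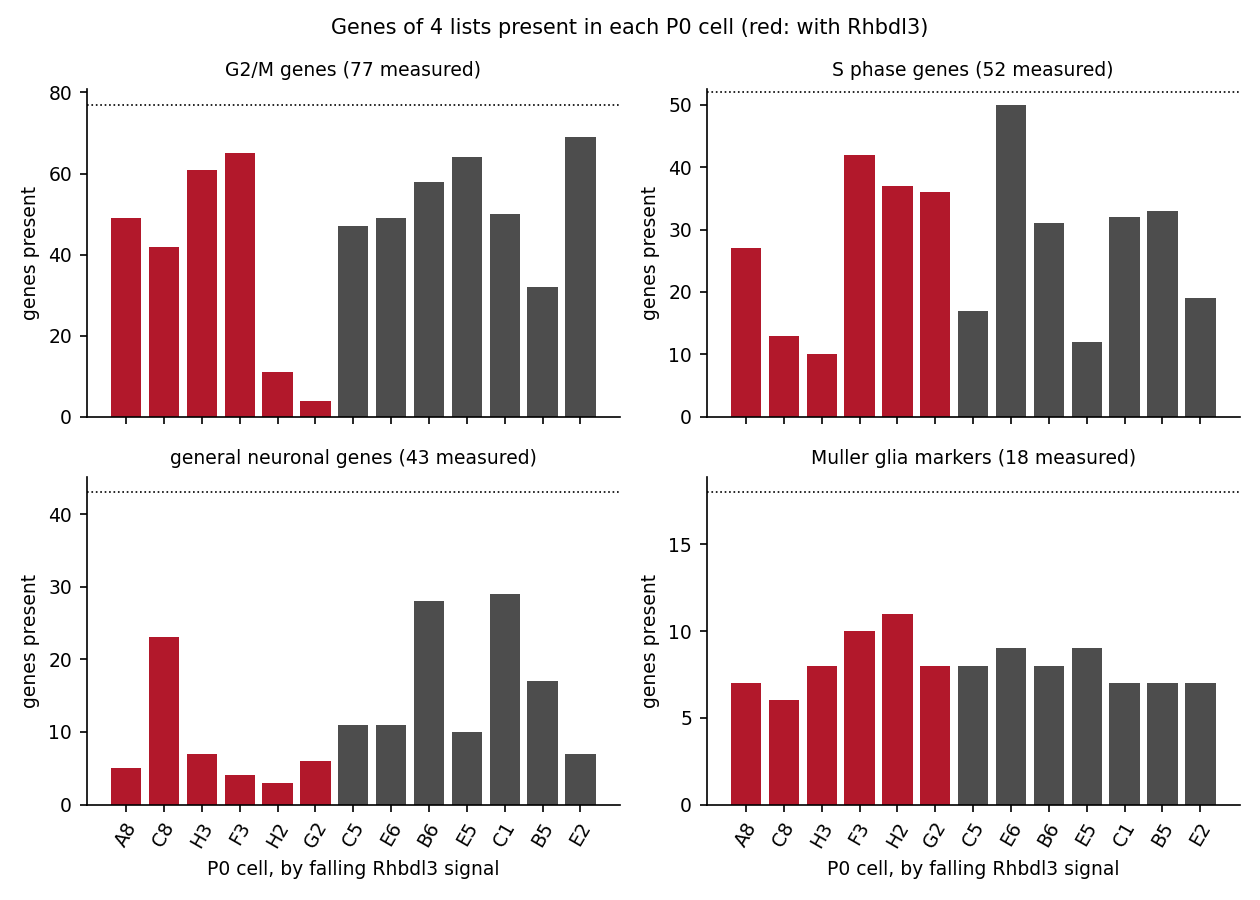
Genes present (vertical axes, at 1000 or above) in each of the 13 P0 cells, by falling Rhbdl3, for 4 gene lists, with a dotted line at the number measured. H2 and G2 have 11 and 4 of 77 G2/M genes, and C8 is the one cell with Rhbdl3 (red) that has many general neuronal genes, 23 of 43.

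S phase genes showed no such direction. Of 52 genes, the cells with Rhbdl3 had F3 42, H2 37, G2 36, A8 27, C8 13 and H3 10, and the cells without had 12 (E5) to 50 (E6). H2 and G2 thus combined many S phase genes with few G2/M genes. C8 and H3 had few S phase genes beside 42 and 61 G2/M genes. So did E5 (12 beside 64), C5 (17 beside 47) and E2 (19 beside 69) without Rhbdl3. The mean shares were 52.9% ± 25.6 and 53.3% ± 24.7, and the difference of -0.41 points turned to 6.2 at equal gene number. Orc6, a subunit of the origin recognition complex, was present in 5 of 6 and 3 of 7 cells, and Rfc5, of the clamp loader, in 1 of 6 and 5 of 7, but the difference for Rfc5 turned from -54.8 to 2.38 points at equal gene number. Of 18 G1 cyclins, kinases and E2f factors, 14 were compared. Tfdp2, a partner of E2f factors, was the one called higher (7.14%, beside 2% of all genes). It was present in 6 of 6 and 3 of 7 cells, a difference of 57.1 points that was 35.7 at equal gene number. Of 21 genes of cell cycle exit 11 were compared and none was called in either direction, where 2% of all genes were called higher and 4.5% lower.

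The relatives of Rhbdl3 and the pathways of its fly homologue were mostly under the limit. Of 8 other rhomboid genes, each cell with Rhbdl3 had 0 to 2 and each cell without 1 or 2. Parl, the mitochondrial rhomboid, was present in 3 of 6 and 4 of 7 cells and Rhbdd3 in 0 and 3. Of 14 EGF family ligands and receptors, no cell had more than 1. Rasa1, a GTPase-activating protein of Ras, was present in 1 of 6 and 5 of 7 cells (-54.8 points, and -42.9 at equal gene number). Of 13 Ras feedback genes 5 were compared and Rasa1 alone was called lower (20%, beside 4.5% of all genes), with 0 called by both rules. Dusp6, an ERK phosphatase, was present in 4 of 6 and 4 of 7 cells.

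Over all genes, 118 were called higher with Rhbdl3, at 50 points or more, which is 2% of 5914, and 266 were called lower, 4.5%. By both rules, as measured and at equal gene number, 33 were higher (0.558%) and 46 lower (0.778%). At equal gene number alone, 157 genes were higher and 111 lower, so that the balance between directions turned. With the limit for presence at 5000, 70 genes were called lower and 114 higher, and the balance turned there too.

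Ccdc59, which encodes a coiled-coil protein, had the largest difference among the genes higher by both rules. Its signal in cells with Rhbdl3 was 4178 in A8, 8830 in C8, 2176 in H3, 2701 in F3, 4222 in H2 and 4037 in G2. Without Rhbdl3 it was 1026 in E6 and at most 849 in the other 6 cells, so that the sides did not overlap. The difference in the share of cells was 85.7 points (Newcombe 95% interval 31.9 to 97.4), and 66.7 at equal gene number. Ccdc59 was picked from all genes compared for its difference in these same cells, so the interval is not evidence of a difference. Ankrd40 and Sun1, the latter a link between nuclear envelope and cytoskeleton, were each present in 6 of 6 and 2 of 7 cells. Pphln1, a chromatin silencing factor, Mrpl50, of the mitochondrial ribosome, and BC031181 were each present in 6 of 6 and 3 of 7. Smim8 was present in 5 of 6 and 1 of 7. Emc7, of the membrane insertion complex of the endoplasmic reticulum, and Pmm1, a phosphomannomutase, were present in 5 of 6 and 2 of 7, and their differences grew from 54.8 points to 83.3 and 69.0 at equal gene number. Poglut2, Elk4, an Ets factor, and Rbm43 were each present in 4 of 6 and 0 of 7 cells.

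Oxsr1, a kinase of the osmotic stress response, led the genes that were lower. It was under 1000 in all 6 cells with Rhbdl3, at 30.4 to 692, and between 1842 (C1) and 16014 (C5) in all 7 without. Its difference was -100 points (Newcombe 95% interval -100 to -47.3), and -71.4 at equal gene number. Oxsr1 was picked in the same way as Ccdc59, so the same limit holds for its interval. Tmeff1, a membrane protein with EGF-like and follistatin-like domains, and Oat, ornithine aminotransferase, were each present in 0 of 6 and 6 of 7 cells. Mrps30, of the mitochondrial ribosome, was present in 0 and 5. Basp1, a membrane protein of growth cones, was present in F3 (3229) and G2 (3537) with Rhbdl3 and at 3794 to 10856 in all 7 cells without. Lonrf2 and Nudc, a cofactor of dynein, were each present in 2 of 6 and 7 of 7. Wdr77, of the arginine methylation complex, Vps41, of lysosomal fusion, Topors, Nudt3 and Wdr45b were each present in 1 of 6 and 6 of 7.

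**Figure D5:**
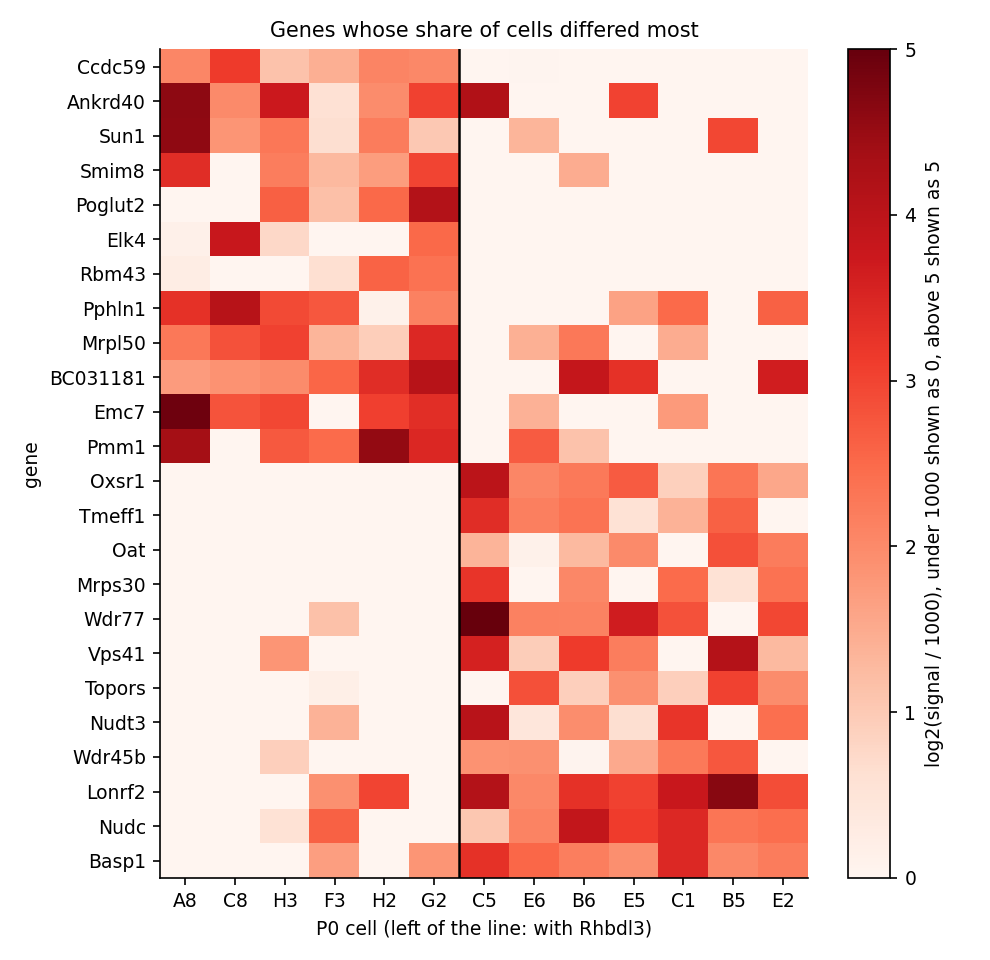
Signals of the 12 genes with the largest difference in each direction among genes called by both rules (rows), in the 13 P0 cells (columns, by falling Rhbdl3), as log2 of the signal over 1000 with lower signals set to 0 and values above 5 drawn as 5. The rows from Ccdc59 to Pmm1 are filled mainly left of the line and those from Oxsr1 to Basp1 mainly right of it, which is how they were chosen.

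Signals that did not overlap between sides were seen for 6 genes above and 6 below, 0.0655% each of the 9155 genes with a signal of 1000 or more in any P0 cell. Those above were Ccdc59 and Sf3b2, a splicing factor (9905 to 20155 with Rhbdl3 and 387 to 8404 without), and Atp7a, D130037M23Rik, Fuom and Gm13306. Those below were Oxsr1, Basp1 and Oat, and Tmem183a, Pitpna and Adar. For 4 of the genes above (Atp7a, D130037M23Rik, Fuom and Gm13306) and 3 of those below (Adar, Oat and Pitpna), the lowest signal of the higher side was itself under 1000, where signals have no order, so that these do not count as separated. Tmem183a was present in 0 of 6 and 7 of 7 cells, but its difference of -100 points was -42.9 at equal gene number. With signals scaled to equal hybridization controls, no gene remained above and 35 were below.

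By Spearman's rho over the 13 cells, with signals under 1000 set to 1000, 5 genes were most like Rhbdl3. They were Ccdc59 (0.88), Ddx39b, an RNA helicase of mRNA export (0.87), Bub3, of the spindle checkpoint (0.85), Sf3b2 (0.84) and Ctnnb1, which encodes beta-catenin (0.84). The 7 cells without Rhbdl3 are tied for that gene on this scale, so rho largely repeats the split that chose the sides. These genes are also the highest of 5914 compared. All cells share the amplification method and differ in gene number and control level, and no p-value is given. Ddx39b and Ctnnb1 were present in all 13 cells. Ctnnb1 was 24159 to 40308 with Rhbdl3 and 14231 to 25134 without, overlapping only through C1.

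Rhbdl3 was also present in 6 earlier cells, at lower signals than the top P0 cells. They were E12.5 A4 (2615), E13.5 A6 (1045), E14.5 B1 (3802), E15.5 B7 (3479) and E16.5 J2 (1902) and F1 (1671), out of 29. Dll1 was present in 2 of these 6, A6 (1609) and F1 (1076), and in 5 of the 23 earlier cells without Rhbdl3, at 2395 to 10100. The highest Dll1 signals of the earlier cells were thus in cells without Rhbdl3. The earlier cells with Rhbdl3 had 9 to 24 of 43 general neuronal genes (median 21) and those without had 3 to 26 (median 8), and stage differs between these cells. Gene number differs too, at 2602 to 5253 genes present with Rhbdl3 and 1386 to 4537 without. The counts of neuronal genes do not allow for it. The study names E14.5 B1 and E16.5 F1 as cells in transition, and they had 24 and 22 of these genes. A4 had 22, B7 20, A6 17 and J2 9. The part of the transitional state or of gene number in this difference was not tested. Neurog2 was present in 1 of the 6 earlier cells with Rhbdl3 and in 6 of the 23 without, and Oxsr1 in 4 of 6 and 10 of 23.

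Only E16.5 had 2 cells with Rhbdl3 to set against cells of its own stage, of which there were 9. Of the 33 genes higher at P0 by both rules, 16 (48.5%) were in a larger share of the E16.5 cells with Rhbdl3, beside 53.2% of all genes compared. Of the 46 genes lower at P0, 17 (37.0%) were in a smaller share, beside 39.9%. Both shares were near those of all genes. Both E16.5 cells were on arrays where the pattern of the control probe sets departed from the others, 5 in all. Within these 5 arrays the shares were 36.4% beside 35.2%, and 54.3% beside 43.8%. With 2 cells against 3, single cells decide these values.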

How the data were processed

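Single-cell cDNA had been amplified by 35 cycles of PCR and hybridized to 1 array per cell. The authors scaled each array to a target intensity of 500 in MAS 5.0 and deposited 1 signal intensity per probe set, which was used as deposited on its linear scale. Of 45101 probe sets, 34958 carried 1 gene symbol, 932 carried several and 9211 carried none in the annotation, and 34754 of the first were matched to RefSeq by gene ID. A gene took its highest such probe set. A gene was compared when 1000 or more in at least 3 P0 cells, and called at a difference of 50 points in the share of cells. Samples were grouped by the stage in their labels. The 13 P0 cells and the gene lists were chosen with earlier results of these data known. Named genes were the 12 with the largest difference in each direction called by both rules, Notch ligands, genes shown by the study beside Rhbdl3, up to 3 list members in each direction and the 5 most like Rhbdl3. Genes outside this rule that did not overlap were named after their values were seen. Shares carry Newcombe intervals at 95% (statsmodels 0.14.6), and the calls were tested on simulated data. The number of arrays limits precision. Rhbdl3 was not matched in the promoter table. Alternatives changed the limits, the probe set rule, the gene number and the cells.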

Additional observations from a re-analysis of the deposited data

Results flagged for a closer look

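P0 cell C8 lay far from the other cells with Rhbdl3 in its count of general neuronal genes, 23 of 43 against 3 to 7 in the other 5 cells. The gap to the nearest cell was 0.8 of the whole range. C8 also had 2 ganglion cell markers, where the other 5 cells with Rhbdl3 had 0. With the other 5 counts all at 0, any count above 0 would have stood out, so this flag carries little weight. Of 36 sets of cells examined in this way 2 stood out. The rule's nominal rate of about 1 in 20 does not hold for such low counts or for sets drawn from the same cells.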

How the results depend on the processing

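All 24 genes named for the largest differences kept their direction under every alternative run. They were chosen for large differences in these same cells, and equal gene number was part of that choice. Leaving out 1 cell could not turn differences of this size, so the kept direction is no independent evidence. Of the 24 genes, 17 stayed at 50 points or more with the limit on Rhbdl3 at 2000, 10 at 5000, and 6 with the limit for presence at 5000. The counts of calls were less stable. With the limit on Rhbdl3 at 2000, 16 genes were higher by both rules and 12 lay above with no overlap. At 5000 these counts were 57 and 11, and the difference in G2/M genes turned to 15.0 points. With presence at 5000, 70 genes were lower, 30 of them also at equal gene number. At equal gene number alone, 157 genes were higher and 111 lower, which turned the balance between directions. Among cells in the shared range of gene number, which leaves 4 cells with Rhbdl3, 60 genes were higher and 102 lower by both rules, and 28 lay above and 41 below with no overlap. After scaling to equal hybridization controls, an alternative chosen after seeing the data, 61 genes were higher and 419 lower, 7 were higher by both rules, and 0 lay above and 35 below with no overlap. Leaving out each P0 cell in turn gave 70 (without F3) to 203 (without C1 or E5) genes called higher and 229 (without A8) to 654 (without C5) called lower. By both rules the ranges were 22 (without G2) to 68 (without E5) higher and 40 (without H3) to 128 (without C5) lower. With no overlap they were 7 to 15 above and 8 to 16 below. Leaving out any of the 7 cells without Rhbdl3, or F3, moved the count of genes called lower by over 1.5 times, and with 6 cells on each side the limit of 50 points corresponds to a gap of 3 cells. List differences ranged from -25.1 (without F3) to -9.24 (without G2) points for G2/M genes, from -5.99 to 6.73 for S phase genes, from 6.29 to 14.3 for Notch ligands, from -25.9 (without C8) to -14.0 (without C1) for general neuronal genes and from -12.2 to -7.78 for proneural bHLH genes. The causes were not tested. The mean of probe sets, presence at 2000 and no filter on low values moved no count of calls by over 1.5 times. No paired analysis was possible because cell names carry no replicate number shared between sides. With 6 and 7 cells, an interval of a share is wide, and a signal under 1000 cannot be told from absence.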
